A study of Mus musculus with 4 samples.

Results

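The genes described here encode complement components and complement inhibitors, and they were chosen by name as C3, C4b, C1ra, C1s1, Serping1 and Cd59a. Rows of RefSeq transcripts in the deposited tables were found for 5 of these 6 genes, out of 13104 genes in all, and Serping1 was not analysed here. The mRNA of 4 stable lines derived from 3T3-L1, mouse preadipocytes that can be driven to become adipocytes, had been sequenced with 1 sample each. FLAG-CACUL1 is the line that overexpresses CACUL1 with a FLAG tag, and FLAG, with the empty vector, is its control. The line sh-CACUL1 carries a hairpin against CACUL1, and its control sh-Luc carries one against luciferase. Each line was at day 8 of adipogenesis, induced with rosiglitazone (5 μM), IBMX (0.5 mM), dexamethasone (1 μg/mL) and insulin (5 μg/mL). The FLAG and sh lines were selected with different drugs, G418 and hygromycin B, and whether a line is 1 clone or a pool of colonies is not stated. With 1 sample per line, no difference below has a replicate check and none was tested.

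Complement is a cascade of secreted proteases and binding proteins that marks surfaces for removal. In the classical pathway the C1 complex, in which C1r activates C1s, cleaves C4 and C2, and the resulting enzyme cleaves C3, the protein on which all routes converge. The alternative pathway uses factor B and factor D (adipsin) to build another C3-cleaving enzyme, and inhibitors such as CD59 on the cell surface keep the cascade from lysing host cells. Most plasma complement comes from the liver, but adipocytes and fibroblasts also make several components, and factor D is a classic product of adipocytes.

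Values are FPKM, fragment numbers scaled to transcript length and sequencing depth, so levels of different genes can be set side by side. A difference is given as log2 of the ratio of FPKM + 1, which understates the change of low genes, and a gene was counted as changed at 2-fold or more on that scale. The steps in low FPKM values gave an estimated depth of 14500000 fragments in FLAG, 14300000 for FLAG-CACUL1, 24000000 for sh-Luc and 15000000 for sh-CACUL1. The targeted gene, Cacul1, had 9.61 FPKM in FLAG, 11.8 FPKM in FLAG-CACUL1, 10.2 FPKM in sh-Luc and 5.39 FPKM in sh-CACUL1. It was thus 1.90-fold lower in the hairpin line than in its control. Whether fragments of the FLAG-CACUL1 construct were counted in the mouse row is not known, so this row does not check the overexpression. Of the adipocyte marker list, 9 of 10 genes had a row, and these summed to 7409 FPKM in FLAG, 880 FPKM in FLAG-CACUL1, 1670 FPKM in sh-Luc and 16479 FPKM in sh-CACUL1. In bulk RNA, fewer differentiated cells and less RNA per cell cannot be told apart. The median difference of all genes was 0.09 for FLAG-CACUL1 against FLAG, -0.30 for sh-CACUL1 against sh-Luc and -0.18 for FLAG against sh-Luc.

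The complement members moved in different directions. Between FLAG-CACUL1 and FLAG, Cd59a was at least 2-fold higher and C4b at least 2-fold lower, and the other 3 members differed by less. This is 2 of 5 members, against 14.7% of all 13104 genes. Between sh-CACUL1 and sh-Luc 0 of the 5 members passed 2-fold, against 21.3% of all genes. The median difference of the members was 0.50 for FLAG-CACUL1 and 0.21 for sh-CACUL1. Larger differences lay between the controls. FLAG was at least 2-fold above sh-Luc for C3, C4b and C1s1, which is 3 of 5 members against 8.59% of all genes that were higher in FLAG, or 21.0% in either direction. The median over the 5 members was 1.45 in that comparison. These controls differ in vector, selection drug and line, and their parts cannot be told apart.

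**Figure D1:**
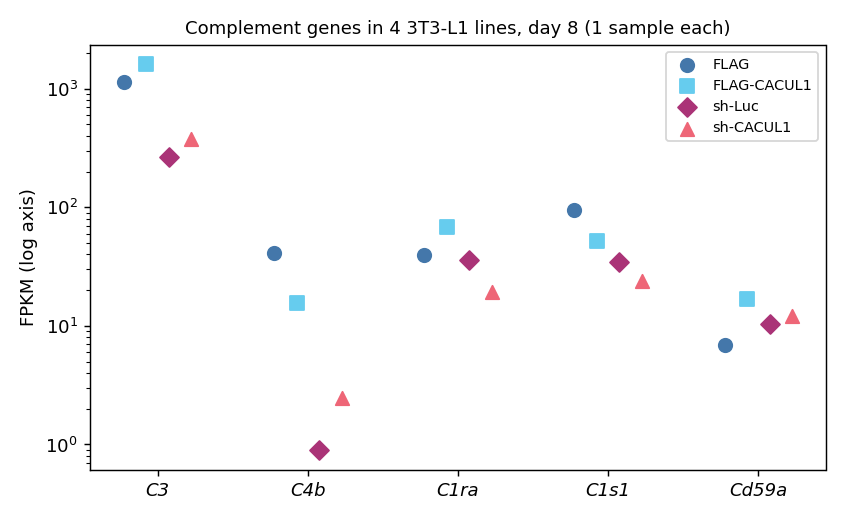
FPKM of the 5 complement genes (log axis) in the 4 lines, 1 point per sample. C3 lay between 267 and 1614 FPKM, far above the other members, and C4b had the widest spread, from 0.892 to 41.5 FPKM.

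**Figure D2:**
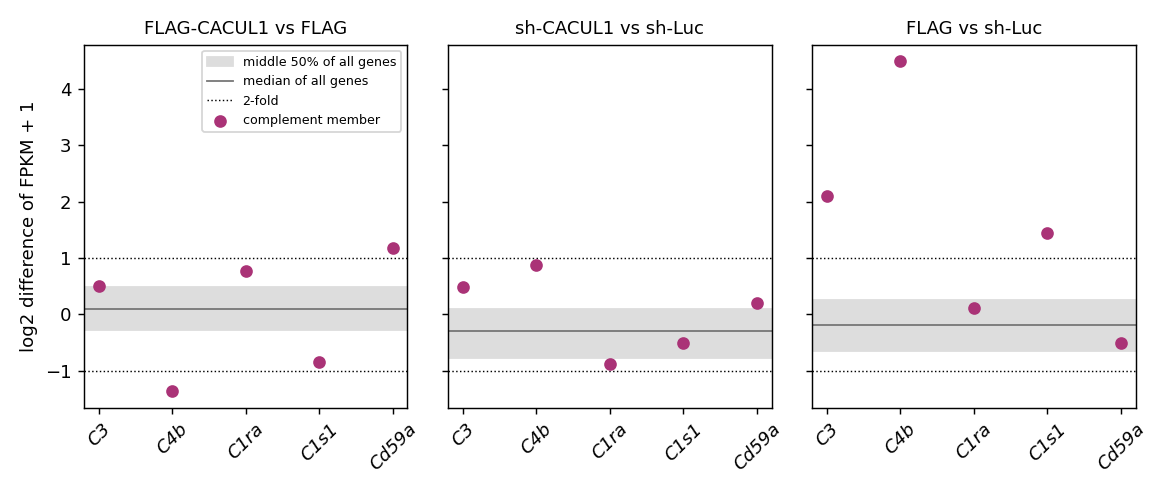
Log2 differences of FPKM + 1 of the 5 members in the 3 comparisons, with the median of all genes (line), the middle 50% of all genes (grey band) and 2-fold (dotted lines). C4b and Cd59a pass 2-fold in FLAG-CACUL1, no member does in sh-CACUL1, and C3, C4b and C1s1 do so between the controls.

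C3, the central component whose cleavage product labels targets, was the most abundant member in every line. Its gene (NM_009778) is at chromosome 17 (GRCm38.p6, minus strand) from 57203967 to 57228136. C3 had 1143 FPKM in FLAG and 1614 FPKM in FLAG-CACUL1. It had 267 FPKM in sh-Luc and 373 FPKM in sh-CACUL1. Both FLAG lines were therefore above both sh lines, by at least 3.07-fold. How many of all genes have this order of lines was not counted, here or for C4b and C1s1 below. Ranked by FPKM among all genes, C3 was at place 25 in FLAG-CACUL1, 60 in FLAG, 162 in sh-CACUL1 and 230 in sh-Luc. The difference was 0.50 on the log2 scale for FLAG-CACUL1 against FLAG and 0.48 for sh-CACUL1 against sh-Luc, so both CACUL1 lines were above their own control by less than 2-fold. After median-of-ratios scaling these differences were 0.34 and 0.93, and after quantile normalization 0.60 and 0.62. Against the other control C3 differed by 2.59 in FLAG-CACUL1 and by -1.61 in sh-CACUL1. Between the controls C3 was 4.29-fold higher in FLAG, a log2 difference of 2.10. The estimated fragments behind these values number 28708 or more, so counting error is small beside the differences.

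The C3 promoter is shown because it is the strongest member, and those of C1ra and C1s1 because these genes lie side by side and differed in opposite directions in FLAG-CACUL1. The sequences are RefSeq's for GRCm38.p6, read 5′ to 3′ from 250 bases before to 50 bases after the start, at chr17:57228087-57228386 (minus strand), chr6:124512371-124512670 (plus strand) and chr6:124542310-124542609 (minus strand, the first of 2 entries). Capitals mark motif matches.
C3: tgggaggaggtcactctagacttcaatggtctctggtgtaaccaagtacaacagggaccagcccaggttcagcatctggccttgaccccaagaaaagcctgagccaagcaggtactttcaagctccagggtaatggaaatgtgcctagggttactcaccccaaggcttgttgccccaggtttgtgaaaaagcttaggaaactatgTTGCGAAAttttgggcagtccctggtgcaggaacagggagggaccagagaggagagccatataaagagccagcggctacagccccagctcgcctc
C1ra: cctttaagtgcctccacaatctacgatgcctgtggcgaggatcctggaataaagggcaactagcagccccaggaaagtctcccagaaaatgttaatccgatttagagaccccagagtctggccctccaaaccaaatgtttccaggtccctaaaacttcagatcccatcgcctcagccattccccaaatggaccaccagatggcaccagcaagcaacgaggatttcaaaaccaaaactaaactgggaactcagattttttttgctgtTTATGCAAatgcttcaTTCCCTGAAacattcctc
C1s1: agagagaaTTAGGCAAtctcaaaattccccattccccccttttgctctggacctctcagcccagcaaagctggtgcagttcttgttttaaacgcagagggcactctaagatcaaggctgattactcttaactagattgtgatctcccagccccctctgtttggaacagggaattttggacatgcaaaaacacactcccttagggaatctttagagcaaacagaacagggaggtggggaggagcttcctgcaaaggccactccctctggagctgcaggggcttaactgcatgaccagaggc
The motifs searched, on both strands, were the C/EBP motif TTGCNNAA, the interferon-gamma type element TTCNNNGAA, the interferon-stimulated element (GAAA, any 2 bases, GAAA), the direct repeat bound by PPARγ with RXR (AGGNCA, any 1 base, AGGNCA), and the NF-κB motif. The C/EBP letters matched in the C3 promoter at position -45 (TTGCGAAA), in C1ra at position 17 and in C1s1 at position -242, and in 10.8% of all 32851 promoters of the table. In the table's second C1s1 entry, whose start lies downstream, the window held no match to the 5 motifs. The interferon-gamma type element matched once, in C1ra at position 33 (TTCCCTGAA), against 8.30% of all promoters. Positions count from 1 at the start of transcription, with negative numbers before it. The Cd59a window held GAAAGGGAAA, a match to the interferon-stimulated element found in 3.44% of all promoters. Neither the direct repeat, which 0.381% of all promoters held, nor the NF-κB motif, held by 8.46%, matched in these windows. A match describes letters and shows no binding. C4b and Serping1 had no entry.

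C4b, the component that the C1 complex cleaves, had the widest range. Its gene (NM_009780) is on the minus strand of chromosome 17 from 34728139 to 34743902. C4b had 41.5 FPKM in FLAG and 15.6 FPKM in FLAG-CACUL1. It had 0.892 FPKM in sh-Luc and 2.47 FPKM in sh-CACUL1. Both sh lines were low, and the lower FLAG line was 6.30-fold above the higher sh line, with 1 sample each. The share of all genes with this order was not computed. FLAG-CACUL1 was 2.66-fold below FLAG, a log2 difference of -1.36. In sh-CACUL1 C4b was 2.77-fold above sh-Luc in plain FPKM, but 0.88 on the log2 scale of FPKM + 1, below the 2-fold mark. The low values rest on an estimated 115 fragments in sh-Luc and 199 in sh-CACUL1, with 95% Poisson intervals of 0.737 to 1.07 FPKM and 2.14 to 2.84 FPKM, which cover counting error only. With a pseudocount of 0.1 the sh-CACUL1 difference was 1.37, and it was 1.17 after quantile normalization and 1.14 after median-of-ratios scaling, each past 2-fold. Against the other control the signs turned, to 3.13 for FLAG-CACUL1 against sh-Luc and -3.61 for sh-CACUL1 against FLAG.

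C4b has a copy, C4a, at 34809092 to 34823460 on the same strand. In the GENCODE M21 transcripts 44.2% of the stretches of 31 bases of C4b also occur in C4a, so fragments could have been split between them. C4a had 2.19 FPKM in FLAG, 0.890 FPKM in FLAG-CACUL1, 0.249 FPKM in sh-Luc and 0.589 FPKM in sh-CACUL1, the same order of lines as C4b. The sum of both copies differed by -1.35 in FLAG-CACUL1, 0.92 in sh-CACUL1 and 4.38 between FLAG and sh-Luc, so summing the copies moved no value across the 2-fold mark.

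Cfb, which encodes factor B of the alternative pathway, lies 123.4 kb from C4b in the class III part of the MHC. It had 21.4 FPKM in FLAG, 8.5 FPKM in FLAG-CACUL1, 0.356 FPKM in sh-Luc and 0.371 FPKM in sh-CACUL1. The log2 difference was -1.23 in FLAG-CACUL1 and 4.04 between FLAG and sh-Luc, where C4b had 4.49. In sh-CACUL1 Cfb differed by 0.02 against 0.88 for C4b. Within 500 kb of C4b, a window chosen after the values were seen, 41 other genes had rows. Of these, 2 (4.88%) were at least 2-fold higher in FLAG than in sh-Luc, against 8.59% of all genes. Those 2 were Cfb and C4a, and 0 genes were at least 2-fold lower, against 12.4% of all genes. The median difference of the 41 genes was -0.03. Within this window, the other measured genes between and around the complement genes thus stayed within 2-fold between the controls. Other window widths were not tried, so nothing is said of genes further out.

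**Figure D3:**
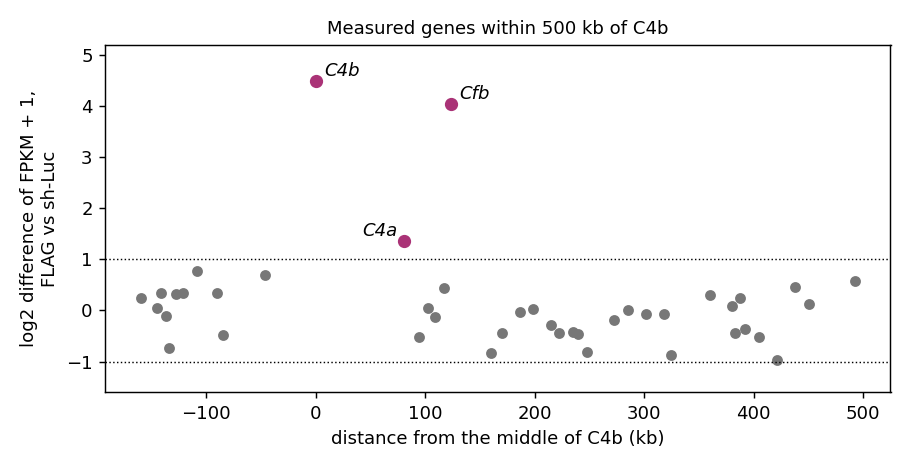
Log2 difference of FPKM + 1 between FLAG and sh-Luc for the measured genes within 500 kb of C4b, against the distance from the middle of C4b in kb. C4b (4.49), Cfb (4.04) and C4a (1.36) lie above 2-fold (upper dotted line), and all other plotted genes lie between the dotted lines.

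The C1 protease genes differed in opposite directions in FLAG-CACUL1, each by less than 2-fold. C1ra (NM_023143) encodes the protease C1r, which activates C1s, and lies on the plus strand of chromosome 6 from 124512621 to 124523440. C1ra had 39.2 FPKM in FLAG, 67.5 FPKM in FLAG-CACUL1, 36.0 FPKM in sh-Luc and 19.3 FPKM in sh-CACUL1. FLAG-CACUL1 was highest and sh-CACUL1 lowest, and the controls between them differed by 1.09-fold, with 95% counting intervals that overlap. On the log2 scale FLAG-CACUL1 differed from FLAG by 0.77 and sh-CACUL1 from sh-Luc by -0.87, each under 2-fold. After quantile normalization these values were 0.76 and -0.51, and after median-of-ratios scaling 0.62 and -0.44. C1ra was thus above its control in FLAG-CACUL1 and below it in sh-CACUL1, while C4b had the opposite pair of signs and the other 3 members had the same sign in both comparisons. With the other control the C1ra values were 0.89 and -0.99, and C3, C4b and C1s1 then had these signs as well.

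C1s1 (NM_144938 and NM_001097617) encodes the protease C1s, which cleaves C4 and C2, and lies on the minus strand from 124530344 to 124542392, so that C1ra and C1s1 face each other. C1s1 had 95 FPKM in FLAG, 52.4 FPKM in FLAG-CACUL1, 34.3 FPKM in sh-Luc and 23.8 FPKM in sh-CACUL1. Each CACUL1 line was below its control and both FLAG lines were above both sh lines. The log2 difference was -0.85 for FLAG-CACUL1 and -0.51 for sh-CACUL1, and it was 1.45 between FLAG and sh-Luc. After median-of-ratios scaling the FLAG-CACUL1 value was -1.0, at the 2-fold mark but not past it. The same scaling gave -0.07 for sh-CACUL1, and with the other control the values were 0.60 and -1.95. The FPKM ratio of C1s1 to C1ra was 2.43 in FLAG and 0.776 in FLAG-CACUL1, against 0.952 for sh-Luc and 1.24 for sh-CACUL1. The ratio thus fell below 1 in FLAG-CACUL1 and was highest in its control.

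Both genes have copies nearby. C1rb shares 41.1% of the 31-base stretches of C1ra and lies from 124570430 to 124581044, and C1s2 shares 20.1% of those of C1s1 and lies from 124624625 to 124636085. C1rb had 31.2 FPKM in FLAG, 90.2 FPKM in FLAG-CACUL1, 31.2 FPKM in sh-Luc and 20.9 FPKM in sh-CACUL1. It was 2.89-fold higher in FLAG-CACUL1 than in FLAG, and the sum of C1ra and C1rb passed 2-fold there, with a log2 difference of 1.15. C1s2 had 13.6, 9.60, 5.03 and 3.52 FPKM in the same order of lines and followed the order of C1s1. With copies summed, the ratio of C1s to C1r genes was 1.54 in FLAG and 0.393 in FLAG-CACUL1, against 0.585 in sh-Luc and 0.680 in sh-CACUL1. C1rl, a neighbouring gene of a C1r-like protease that shares none of these stretches with C1ra, went from 8.11 FPKM in FLAG to 1.41 FPKM in FLAG-CACUL1. Within 500 kb of C1ra, the window used for C4b, 24 other genes had rows. In FLAG-CACUL1 1 of them was at least 2-fold higher and 7 lower, against 7.52% and 7.22% of all genes. In sh-CACUL1 4 were higher and 0 lower, against 4.95% and 16.4%. Between FLAG and sh-Luc 5 were higher and 1 lower, against 8.59% and 12.4%.

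**Figure D4:**
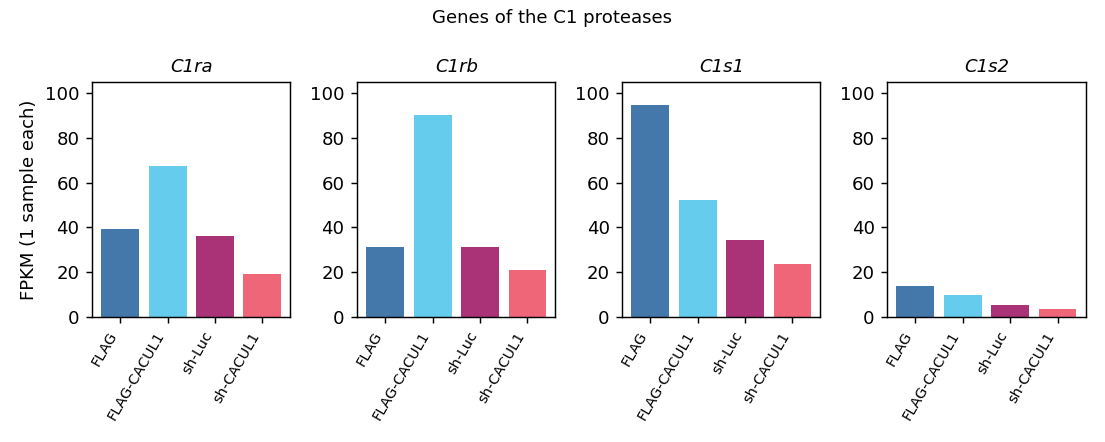
FPKM of the C1 protease genes C1ra, C1rb, C1s1 and C1s2 in the 4 lines, 1 bar per sample. C1ra and C1rb are highest in FLAG-CACUL1, at 67.5 and 90.2 FPKM, and C1s1 and C1s2 are highest in FLAG, at 95 and 13.6 FPKM.

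Cd59a encodes the surface inhibitor that blocks assembly of the membrane attack complex, and was the lowest member in FLAG cells. The gene (NM_001111060 and NM_007652) is on the plus strand of chromosome 2 from 104095753 to 104115410. Cd59a had 6.96 FPKM in FLAG, 17.0 FPKM in FLAG-CACUL1, 10.3 FPKM in sh-Luc and 12.0 FPKM in sh-CACUL1. FLAG-CACUL1 was highest and FLAG lowest, and the sh lines lay between them with counting intervals that overlap. It was 2.44-fold higher in FLAG-CACUL1 than in FLAG, a log2 difference of 1.18, and differed by 0.21 between sh-CACUL1 and sh-Luc. Against sh-Luc the FLAG-CACUL1 difference was 0.67, under 2-fold, because FLAG was itself below sh-Luc by 0.50 on the log2 scale. The value in FLAG rests on an estimated 182 fragments, with a 95% Poisson interval of 5.98 to 8.05 FPKM. The share of 31-base stretches in common with its copy Cd59b was 4.66%, and Cd59b was not analysed here. The FPKM ratio of C3 to Cd59a was 164 in FLAG and 95.1 in FLAG-CACUL1, against 26.0 in sh-Luc and 31 in sh-CACUL1.

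Of 49 other complement genes on a list, 18 had a row and 16 of these reached 1 FPKM in any line. All deposited rows were above 0 in every line, so a gene at 0 in 1 line may have no row. Here and in the lists below, a missing row does not show that a gene is silent. In FLAG-CACUL1 4 of the 18 were at least 2-fold higher and 3 lower, against 7.52% and 7.22% of all genes. In sh-CACUL1 3 were higher and 4 lower, against 4.95% and 16.4% of all genes. Between FLAG and sh-Luc 4 were higher and 3 lower, against 8.59% and 12.4% of all genes. The median over the 18 genes was 0.13, -0.27 and -0.02, respectively.

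Of the 10 initiation and activation genes, Cfd, which encodes factor D, had the widest range. It had 1070 FPKM in FLAG, 3.78 FPKM in FLAG-CACUL1, 18.5 FPKM in sh-Luc and 1159 FPKM in sh-CACUL1. The FPKM ratio of C3 to Cfd was 1.07 in FLAG and 427 in FLAG-CACUL1, against 14.4 in sh-Luc and 0.322 in sh-CACUL1, so C3 did not follow Cfd. Masp1, a protease of the lectin pathway, had 1.59 FPKM in FLAG, 13.4 FPKM in FLAG-CACUL1, 5.61 FPKM in sh-Luc and 0.222 FPKM in sh-CACUL1. Its log2 differences of 2.47 and -2.44 had the signs of C1ra. Cfp, which encodes properdin, a stabilizer of the alternative pathway enzyme, had 1.94 FPKM in sh-Luc and 5.92 FPKM in sh-CACUL1.

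Among the other inhibitors 4 of 12 had a row. Cr1l (Crry), a surface inhibitor of C3 cleavage in rodents, lay between 14.7 and 22.2 FPKM in all lines and passed 2-fold in no comparison. Clu, which encodes clusterin, was 11.8 FPKM in sh-Luc and 4.93 FPKM in sh-CACUL1, a log2 difference of -1.11, and differed by -0.12 in FLAG-CACUL1. Of the terminal pathway 1 of 7 genes had a row, C8g, with 2.20 FPKM in sh-Luc and 6.17 FPKM in sh-CACUL1. Of 10 receptor genes 3 had a row, and Itgb2, the beta chain of the receptors for cleaved C3, had 0.664 FPKM in FLAG, 5.62 FPKM in FLAG-CACUL1, 6.29 FPKM in sh-Luc and 1.37 FPKM in sh-CACUL1.

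**Figure D5:**
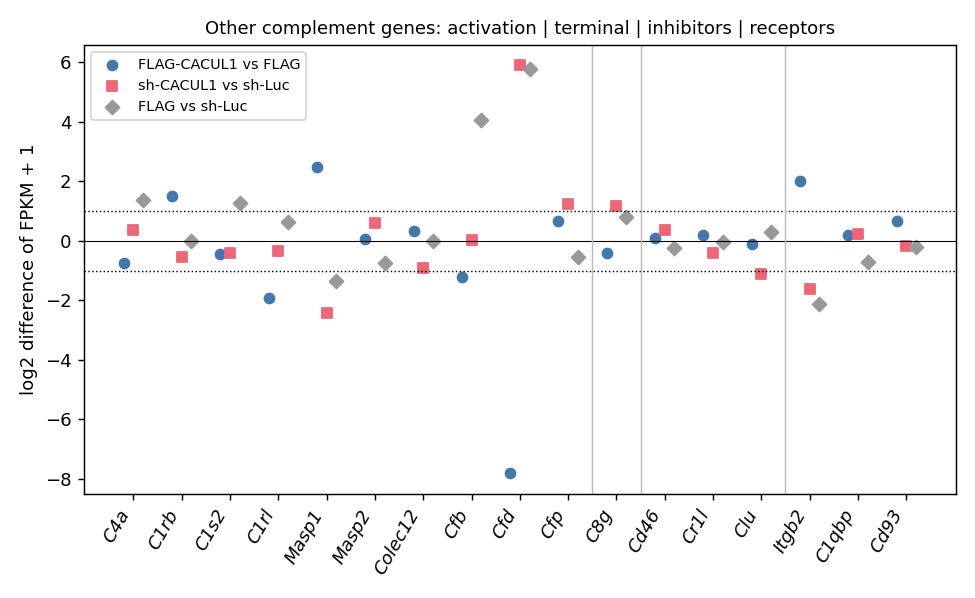
Log2 differences of FPKM + 1 of 17 other complement genes in the 3 comparisons, grouped by role and with 2-fold as dotted lines. Cfd has the widest range, from -7.81 in FLAG-CACUL1 to 5.90 in sh-CACUL1, and Cfb reaches 4.04 between FLAG and sh-Luc.

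Other gene lists moved beside the members. Of the adipocyte markers, 9 of 9 genes with a row passed 2-fold downward in FLAG-CACUL1, against 7.22% of all genes. In sh-CACUL1 9 of 9 passed it upward, against 4.95% of all genes. C4b had this pair of signs, with log2 differences of -1.36 and 0.88, and passed 2-fold in both comparisons with a pseudocount of 0.1 (-1.41 and 1.37) or none (-1.41 and 1.47), after quantile normalization (-1.36 and 1.17) and after median-of-ratios scaling (-1.51 and 1.14). The other 4 members did not have this pair of signs against their own controls. With the other control the C4b signs turned, to 3.13 in FLAG-CACUL1 and -3.61 in sh-CACUL1. Over the 4 lines C4b did not follow the adipocyte sum. That sum was highest in sh-CACUL1, at 16479 FPKM, where C4b had 2.47 FPKM against 41.5 FPKM in FLAG. The preadipocyte and fibroblast markers summed to 6256 FPKM in FLAG, 9740 FPKM in FLAG-CACUL1, 6575 FPKM in sh-Luc and 1232 FPKM in sh-CACUL1, mostly from Col1a1, Col3a1, Fn1 and S100a4. Of the 9 genes of that list with a row, 5 were at least 2-fold higher and 1 lower in FLAG-CACUL1, against 7.52% and 7.22% of all genes. In sh-CACUL1 2 were higher and 6 lower, against 4.95% and 16.4% of all genes. The 2 higher ones were Dlk1, from 0.220 FPKM in sh-Luc to 21.2 FPKM, and Thy1, from 0.663 FPKM to 34.3 FPKM. The acute phase genes, of which 8 of 11 had a row, summed to 4424 FPKM in FLAG, 8696 FPKM in FLAG-CACUL1, 80.6 FPKM in sh-Luc and 179 FPKM in sh-CACUL1. Saa3, a serum amyloid A gene, made up most of the FLAG-CACUL1 sum, with 6829 FPKM there and 1135 FPKM in FLAG. Of these 8 genes, 2 were at least 2-fold higher and 3 lower in FLAG-CACUL1, and 5 were higher and 1 lower in sh-CACUL1, beside the same shares. In FLAG 6 were higher and 1 lower than in sh-Luc, against 8.59% and 12.4% of all genes. The 17 interferon-responsive genes summed to 3974 FPKM in FLAG, 7178 FPKM in FLAG-CACUL1, 1950 FPKM in sh-Luc and 718 FPKM in sh-CACUL1. Most of each sum was B2m. The sums had the order of lines seen for C1ra, but the single genes did not all share it. In FLAG-CACUL1 4 of the 17 were at least 2-fold higher and 2, Psmb9 and Gbp2, lower. In sh-CACUL1 0 were higher and 9 lower, and 9 were higher and 0 lower in FLAG than in sh-Luc. The shares of all genes are those given above for each comparison. The part of these lists in the complement values was not tested.

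Markers of other cell types that make complement were also examined. Of the macrophage list 6 of 9 genes had a row, with sums of 40.9 FPKM in FLAG, 111 FPKM in FLAG-CACUL1, 9.36 FPKM in sh-Luc and 6.96 FPKM in sh-CACUL1, mostly Cd68, Cd14 and Lyz2, which are not limited to macrophages. In FLAG-CACUL1 Lyz2 had 66.5 FPKM and Cd14 had 42.2 FPKM, near the levels of C1ra and C1s1 in that line. Both were above their FLAG values of 8.12 and 15.0 FPKM, but Cd68 fell from 16.2 FPKM in FLAG to 1.44 FPKM. Of the 6 genes, 2 were at least 2-fold higher and 1 lower in FLAG-CACUL1, against 7.52% and 7.22% of all genes. The median log2 difference of the 6 was 0.02. The more specific Csf1r reached 0.607 FPKM at most. These sums are higher in the FLAG lines, as is C3, and their part in it was not tested. Of the hepatocyte list 1 of 6 genes had a row, with at most 0.11 FPKM, and of the endothelial list 2 of 5, with sums of at most 0.931 FPKM. For the genes without a row the level is not known.

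The members differed among themselves in pattern over the 4 lines. The root mean square difference between their log2(FPKM + 1) values, each centred on its mean over the 4 lines, was lowest for C1ra with C1s1 (0.61) and C1ra with Cd59a (0.63). It was highest for C4b with Cd59a (1.93). By the same measure over 4 samples, and among 6867 genes outside the complement lists with at least 10 FPKM in any line, the genes nearest to C3 were Gm11127 (0.21), Map1lc3a (0.23) and Ctsz (0.26). Nearest to C4b were Chil1 (0.26), Emp2 (0.35) and Higd1a (0.37). Nearest to C1ra were Pdgfc (0.011), Fam3c (0.047) and Arf6 (0.048), and near to C1s1 were Tgoln1 (0.040) and Chac1 (0.048). For Cd59a they were 5730409E04Rik (0.064), Dnlz (0.069) and Tsr2 (0.070). Many genes can come this near by 4 values alone.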

How the data were processed

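The authors deposited FPKM values per RefSeq row for 1 sample of each line, with 13110 rows that were all above 0 in every sample. Per the labels a company made the mRNA-seq libraries and the build was mm10, and the aligner, counter and normalization between samples are not given in the sources used here. Rows were named through RefSeq accessions of GRCm38.p6 (12996 rows) or GENCODE M21 (65 rows), and 47 rows had no symbol. Rows of a symbol were summed, which gave 13104 genes. The files hold no counts, so no count test was used, and with 1 sample per line no test was made. Depth was estimated from the spacing of low FPKM values multiplied by transcript length, in transcripts of at least 3000 bases, and fragments and 95% Poisson intervals follow from it. A gene was called at 2-fold on log2(FPKM + 1), with a pseudocount of 1. The study's methods name the 2-fold cut-off. The named genes are the members, Cacul1, complement list genes, those of other lists on which a result turns, and the 3 genes nearest in pattern to each member. A complement list gene and a gene near to C1s1 in pattern are not reported here. C4b neighbours were named after their values were seen. Members and lists were chosen with earlier results of these data known. Alternatives were a pseudocount of 0.1 or none, a filter of 1 FPKM in all samples, quantile normalization, median-of-ratios scaling, the highest row per symbol, a cut-off of 3-fold and the other control. Summing the pairs of copies (C4b with C4a, C1ra with C1rb, C1s1 with C1s2) was added after seeing the data. Scripts were tested on simulated data. Python 3.11.15, numpy 2.4.6, scipy 1.17.1, pandas 2.3.3 and matplotlib 3.10.9 were used.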

Additional observations from a re-analysis of the deposited data

How the results depend on the processing

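No paired analysis was possible because each line has 1 sample. For FLAG-CACUL1 against FLAG, 2 members passed 2-fold. The count was 1 when genes needed 1 FPKM in all samples, which removes C4b, and 0 at a cut-off of 3-fold. It was 3 with the pairs of copies summed, which adds C1ra. For sh-CACUL1 against sh-Luc the count of 0 became 1, C4b upward, with a pseudocount of 0.1, with none, after quantile normalization and after median-of-ratios scaling. It became 3 against the other control, where 22.9% of all genes were called. For FLAG against sh-Luc the 3 members became 2 with that filter on low values and 2 at 3-fold, and was 3 under the other alternatives run. With the other control the FLAG-CACUL1 count was 2 again, but of C3 and C4b, both higher, and 9.91% of all genes were called. C4b turned to 3.13 in FLAG-CACUL1, and C3 and C4b turned to -1.61 and -3.61 in sh-CACUL1, where FLAG takes the place of sh-Luc. Of 112 values of single members under the alternatives, 100 kept their direction and side of 2-fold. Part of this was fixed in advance. Each member has 1 row, so taking the highest row per symbol cannot change it. The filter on low values leaves the genes it keeps unchanged, and summing pairs leaves C3 and Cd59a unchanged.

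The share of all genes called moved from 14.7% in FLAG-CACUL1 to 28.9% without a pseudocount and 5.07% at 3-fold. It moved from 21.3% to 36.7% and 7.15% in sh-CACUL1, and from 21.0% to 36.1% and 7.61% between the controls. In sh-CACUL1 23.2% of the called genes were higher, but 52.2% after quantile normalization and 53.9% after median-of-ratios scaling, which move the median of all genes from -0.30 to about 0. Between the controls the share was 40.9%, 54.1% and 62.9%, and in FLAG-CACUL1 51.0%, 44.9% and 38.2%. Depth limits the low values: the lowest rest on an estimated 15 fragments for Cfb, 18 for Masp1, 29 for Itgb2, 50 for Cfd, 61 for C1rl and, among the members, 115 for C4b.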
